A study of Mus musculus with 6 samples.

Results

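The B-cell migration and homing receptors are 9 genes, *Cxcr5*, *Ccr7*, *Ccr6*, *Cxcr4*, *Gpr183*, *S1pr1*, *S1pr2*, *S1pr3* and *S1pr4*, which were found by symbol among the 55421 genes of the RNA-seq table. All 9 reached the mean of 10 normalized counts that was required for testing, as did 17640 genes in all. The RNA came from mouse splenic B cells that were cultured with 5 µg/ml of LPS, a bacterial product that activates B cells, and 5 ng/ml of IL-4, a T cell cytokine, for 24 h. The WT group was 3 mice with CD21-cre and no floxed *Hnrnpl* allele. The hnRNPL-deficient group, KO in the plots, was 3 mice of the genotype hnRNPL F/F CD21-cre, in which Cre removes the gene of the RNA-binding splicing factor hnRNPL. Both groups also carried the Rosa mT/mG reporter on a C57BL6/J background, and only GFP+ cells, those in which Cre had acted, were sorted for RNA. CD21-cre acts mostly in mature peripheral B cells, so both groups had Cre activity, and mice of both sexes older than 6 weeks were used. All 6 libraries came from activated cells, so no resting level was measured.

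These receptors couple to G proteins and steer B cells through lymphoid tissue. *Cxcr5* draws B cells into follicles, *Ccr7* draws them toward the T cell zone, *Gpr183* places activated B cells at the edges of the follicle, and *Cxcr4* guides cells within the germinal center and into the bone marrow. The S1P receptors read the lipid sphingosine 1-phosphate, which is high in blood and lymph, and govern exit from tissue and position in the marginal zone or the germinal center.

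*Hnrnpl* itself was at 24371, 25579.7 and 24174 normalized counts in WT mice but at 2178, 1518 and 1297 after deletion, a mean of 6.74% of WT. Reads on genes ran from 40395186 to 75180749 per library, so each receptor rested on at least 22 reads in every library. None of the 6 B cell markers passed both thresholds in either direction, and their summed level was 274200 to 350800 in WT and 266500 to 312700 in hnRNPL-deficient libraries. *Xist*, an RNA of the inactive X chromosome, was at 98507 in WT library 3, at 98219 in hnRNPL-deficient library 2 and under 10 in the other 4, so each group mixed both kinds of library in the same proportion.

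Of the 9 receptor genes, *Ccr7* and *Cxcr4* were called higher and *Cxcr5* was called lower in hnRNPL-deficient B cells, where a call required a Benjamini-Hochberg adjusted p under 0.1 in the limma fit and a change of at least 1.5-fold. Over all 17640 genes tested, 7.28% were called higher and 4.08% lower. With no minimum fold, 2 receptor genes passed the adjusted p upward and 2 downward, the latter being *Cxcr5* and *S1pr3*, against 10.0% and 7.97% of all genes. The WT and hnRNPL-deficient values did not overlap for 5 of the 9 receptors (the above 4 and *Ccr6*), against 34.0% of all genes. The median log2 fold change of the 9 was -0.14, against -0.03 for all genes. For a single gene, the exact permutation test on 3 against 3 libraries cannot give a p below 0.1, which is the value it gave for each of these 5 genes. In bulk RNA such as this, fewer cells that express a receptor and less RNA per cell cannot be told apart, and RNA does not measure receptor on the cell surface.

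**Figure D1:**
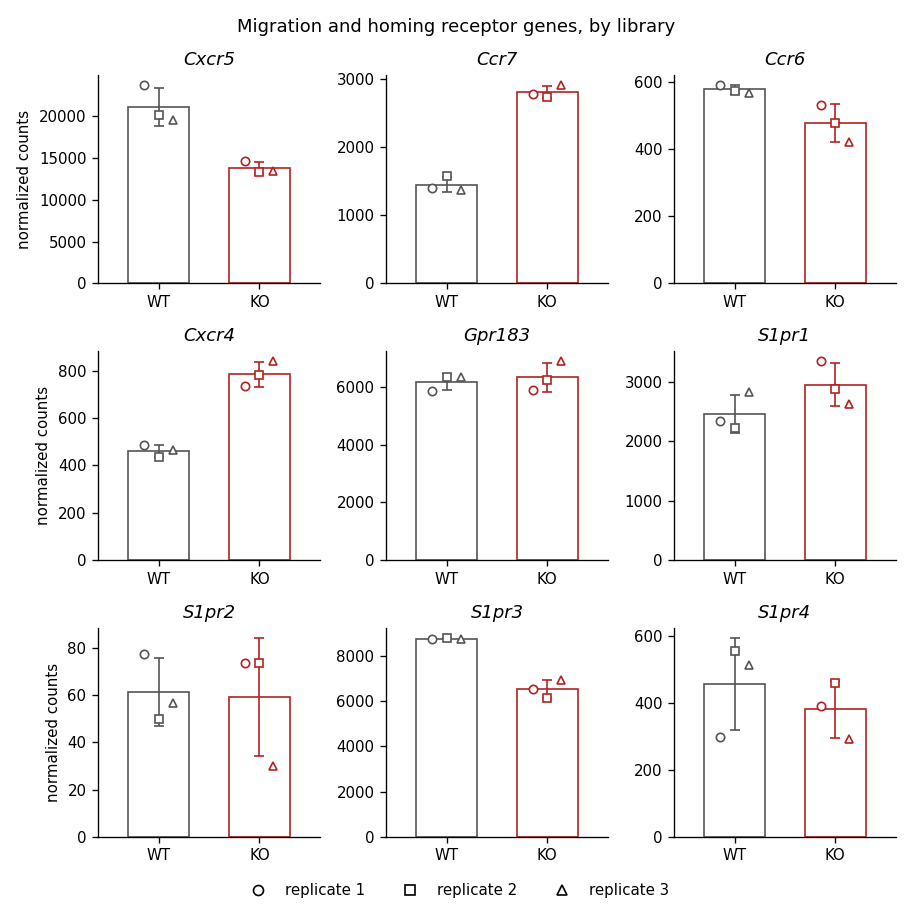
Normalized counts of the 9 receptor genes in each library, in 1 panel per gene with its own axis from 0. Bars are group means, error bars are SD over 3 mice, and symbols mark the replicates of WT (grey) and KO, the hnRNPL-deficient group (red). The 3 hnRNPL-deficient libraries lie above all WT libraries for Ccr7 and Cxcr4 and below them for Cxcr5, S1pr3 and Ccr6, and the groups overlap for the other 4.

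The follicle-homing receptor *Cxcr5* (ENSMUSG00000047880.15, GRCm38 chr9:44511787-44561877, minus strand), which binds CXCL13, had 23721, 20079.8 and 19511 normalized counts in WT libraries 1 to 3. It had 14607, 13283 and 13441 in the hnRNPL-deficient libraries. The highest hnRNPL-deficient value was thus below the lowest WT value. The mean fell by 34.7%, from 21104 ± 2284 to 13777 ± 723 (SD, n = 3 each), with a log2 fold change of -0.61 (SE 0.11, 95% interval -0.85 to -0.37, adjusted p = 0.00955 by limma). The size of this change lay close to the 1.5-fold limit. Without WT library 1, the highest of the 6, the log2 fold change was -0.52, short of that limit, and it was also short of it with the libraries scaled to equal totals (-0.56), after quantile normalization (-0.46) and in both count tests, with edgeR giving -0.55. The adjusted p of *Cxcr5* stayed between 0.00156 and 0.0385 in all 20 alternatives.

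hnRNPL is known to bind CA-rich RNA, so the longest coding transcript of each receptor was searched on its sense strand for CACACACA. *Cxcr5* had 1 such run and *S1pr2* had 3, while the other 7 had none; of the 11532 tested genes with a coding transcript, 17.5% held a run. The *Cxcr5* run and 1 of the *S1pr2* runs are shown, with 8 bases on each side and the run in capitals, because these are the only receptors of the 9 whose searched transcript holds such a stretch. Introns and other transcripts were not searched. The *Cxcr5* run is 8 bases long and lies in the 5′ UTR (GRCm38 chr9:44556220-44556243, minus strand). The *S1pr2* runs all lie in the 3′ UTR. The longest spans 50 bases, and the 1 shown spans 14 (GRCm38 chr9:20964493-20964522, minus strand).
Cxcr5: ggcagcgcCACACACAccaaaaga
S1pr2: attgtagaCACACACACACACAgggtcttt
A run of these letters is a description of the transcript, and binding was not measured in these libraries. Whether such a run goes with a change of the gene was not tested.

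*Ccr7* (ENSMUSG00000037944.8, chr11:99144196-99155077, minus strand), the receptor for the T zone chemokines CCL19 and CCL21, was the receptor with the largest fold change of the 9. Its normalized counts were 1404, 1576 and 1379.6 in WT mice and 2788, 2743 and 2922 in hnRNPL-deficient mice. Every hnRNPL-deficient value lay above every WT value, by a margin far wider than the spread within either group. The mean rose 1.94-fold, from 1453 ± 107 to 2818 ± 93.2 (SD, n = 3 each), a log2 fold change of 0.96 (SE 0.10, 95% interval 0.73 to 1.19, adjusted p = 0.00124 by limma). Leaving out each library in turn kept this value between 0.92 and 1.02.

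*Cxcr4* (ENSMUSG00000045382.6, chr1:128588199-128592293, minus strand) encodes the receptor for CXCL12. Its WT libraries had 487, 436 and 463 normalized counts, and the hnRNPL-deficient libraries had 735, 780.5 and 840.2. The groups were again apart. The mean rose 1.70-fold, from 462 ± 25.9 to 785 ± 52.9 (SD, n = 3 each), with a log2 fold change of 0.76 (SE 0.13, 95% interval 0.47 to 1.05, adjusted p = 0.00819 by limma). Its value stayed between 0.71 and 0.81 when any 1 library was left out.

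RefSeq promoters (GRCm38.p6, windows of 300 bases that end shortly after the start of transcription) were matched for 6 of the 9 receptors, all but *Ccr7*, *Cxcr5* and *S1pr1*. The promoters of *Cxcr4* (chr1:128592250-128592549, minus strand) and *S1pr3* (chr13:51408368-51408667, plus strand) are shown because these are the 2 matched receptors that passed the adjusted p, 1 upward and 1 downward. Capitals mark the GC box GGGCGG, the site of SP and KLF type factors, searched on both strands, and it reads CCGCCC where it lies on the other strand.
Cxcr4: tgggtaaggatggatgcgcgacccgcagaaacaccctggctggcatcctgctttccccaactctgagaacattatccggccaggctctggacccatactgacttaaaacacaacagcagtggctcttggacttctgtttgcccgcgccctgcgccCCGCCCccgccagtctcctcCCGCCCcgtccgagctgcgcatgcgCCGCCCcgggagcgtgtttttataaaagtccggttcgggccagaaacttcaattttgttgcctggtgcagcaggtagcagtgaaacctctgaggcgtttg
S1pr3: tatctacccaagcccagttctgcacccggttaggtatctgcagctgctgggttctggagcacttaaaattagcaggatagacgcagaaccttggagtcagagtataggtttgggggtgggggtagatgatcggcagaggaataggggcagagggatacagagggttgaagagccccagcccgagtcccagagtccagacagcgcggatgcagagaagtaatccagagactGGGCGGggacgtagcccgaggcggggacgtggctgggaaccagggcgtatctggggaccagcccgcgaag
The *Cxcr4* window held 3 GC boxes and the *S1pr3* window held 1, as did that of *S1pr2*, whereas those of *S1pr4*, *Gpr183* and *Ccr6* held none; 35.7% of 32851 RefSeq promoters hold at least 1. The FOXO-type motif TGTTTAC was in none of the matched windows and is in 3.65% of all promoters. The shorter CACCC motif was once in *Cxcr4*, *S1pr2* and *S1pr4* and at 2 places in *S1pr3*, and 57.5% of all promoters hold it.

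*Ccr6* (ENSMUSG00000040899.14, chr17:8236043-8257141, plus strand), the receptor for CCL20, had 591, 572 and 567 normalized counts in WT libraries and 532, 478 and 419 in hnRNPL-deficient libraries. All hnRNPL-deficient values were below all WT values. They were spread more widely, however, with means of 577 ± 12.4 and 476 ± 56.3 (SD, n = 3 each). The log2 fold change of -0.28 did not pass the test (SE 0.14, 95% interval -0.60 to 0.04, adjusted p = 0.235 by limma).

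**Figure D2:**
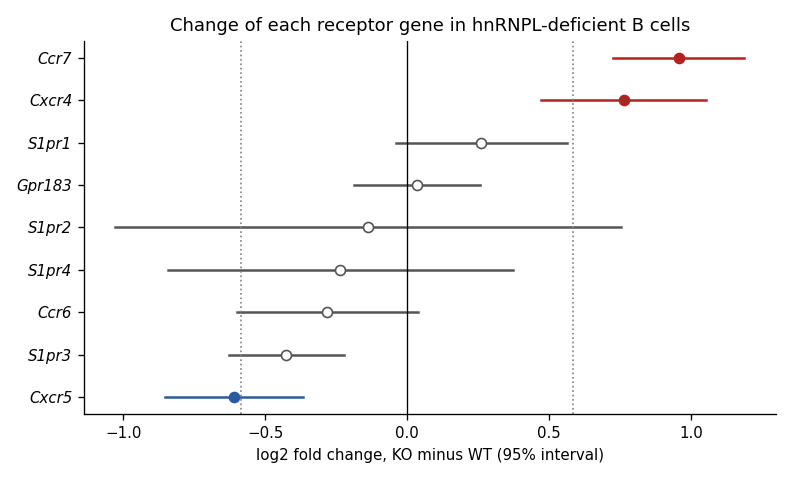
Log2 fold change of each receptor gene, hnRNPL-deficient minus WT, with its 95% interval from limma over 3 mice per group. Filled points are called higher (red) or lower (blue), and dotted lines mark 1.5-fold. Ccr7 (0.96) and Cxcr4 (0.76) lie beyond the upper line and Cxcr5 (-0.61) just beyond the lower line, the interval of S1pr3 lies wholly below 0, and the intervals of the other 5 cross 0.

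*Gpr183* (ENSMUSG00000051212.8, chr14:121952551-121965195, minus strand), also known as EBI2, binds an oxysterol. It had 5846, 6329 and 6350.4 normalized counts in WT and 5878, 6221 and 6883 in hnRNPL-deficient libraries, and the groups overlapped. The means were 6175 ± 286 and 6328 ± 511 (SD, n = 3 each). Its log2 fold change of 0.03 had a 95% interval of -0.19 to 0.26 (adjusted p = 0.854 by limma), which leaves out a 1.5-fold change in either direction.

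Among the S1P receptors, *S1pr3* (ENSMUSG00000067586.4, chr13:51408639-51422797, plus strand), which is found on marginal zone B cells, was the 1 that passed the adjusted p. It had 8779, 8819.9 and 8753 normalized counts in WT libraries and 6562, 6134 and 6946 in hnRNPL-deficient libraries. The WT values were nearly the same and all lay above the hnRNPL-deficient ones. The mean fell by 25.5%, from 8784 ± 33.7 to 6548 ± 407 (SD, n = 3 each), a log2 fold change of -0.43 (SE 0.089, 95% interval -0.63 to -0.22, adjusted p = 0.0199 by limma) that stayed under the 1.5-fold limit. In the same libraries, 2 of 4 marginal zone B cell markers were called higher and 1 lower, and their part in this value was not tested.

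*S1pr1* (ENSMUSG00000045092.8, chr3:115710433-115715072, minus strand), which carries lymphocytes out of lymphoid tissue and marginal zone B cells into the marginal zone, had 2338, 2236 and 2829.5 normalized counts in WT and 3353, 2878 and 2637 in hnRNPL-deficient libraries. The lowest hnRNPL-deficient library lay below the highest WT library. The log2 fold change was 0.26 (SE 0.13, 95% interval -0.04 to 0.56, adjusted p = 0.244 by limma), with means of 2468 ± 317 and 2956 ± 364 (SD, n = 3 each).

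*S1pr2* (ENSMUSG00000043895.6, chr9:20962361-20976781, minus strand), which holds B cells in the germinal center, was the receptor with the fewest counts. It had 77.8, 50.1 and 56.6 normalized counts in WT and 73.9, 73.7 and 30.2 in hnRNPL-deficient libraries, so the hnRNPL-deficient group held both values near the highest of all and the lowest. The log2 fold change of -0.14 had a 95% interval of -1.03 to 0.75 (adjusted p = 0.849 by limma), wide enough to hold a 1.5-fold change in either direction. *S1pr4* (ENSMUSG00000044199.6, chr10:81497747-81500132, minus strand), an S1P receptor of lymphoid and myeloid cells with a single exon, had 299, 558 and 515 normalized counts in WT and 392.2, 459 and 292 in hnRNPL-deficient libraries. WT library 1 was nearer to the hnRNPL-deficient values than to the other WT libraries. The log2 fold change was -0.24 (95% interval -0.84 to 0.37, adjusted p = 0.606 by limma).

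The balance between receptors was then read as a ratio within each library, which does not depend on how libraries were scaled. The ratio of *Ccr7* to *Cxcr5*, the T zone receptor over the follicle receptor, was 0.0592, 0.0785 and 0.0707 in WT libraries and 0.191, 0.206 and 0.217 in hnRNPL-deficient libraries. It was 2.96-fold higher in hnRNPL-deficient B cells by geometric means, with no overlap, and the log2 difference was 1.57. The ratio of *Cxcr4* to *Cxcr5* was 0.0206, 0.0217 and 0.0238 in WT and 0.0503, 0.0588 and 0.0625 in hnRNPL-deficient libraries, 2.59-fold higher. The ratio of *Gpr183* to *Cxcr5* went from 0.246, 0.315 and 0.326 to 0.402, 0.468 and 0.512, 1.56-fold higher, although *Gpr183* itself gave no call. Each of these 3 ratios had an exact two-sided permutation p of 0.1, the smallest possible, and 0.133 after adjustment over the 4 ratios, so none could pass a threshold of 0.05. The ratio of *S1pr1*, the exit receptor, to *S1pr2*, the retention receptor, had means of 41.5 ± 10.3 in WT and 57.3 ± 26.3 in hnRNPL-deficient B cells (SD, n = 3 each, exact permutation p = 0.5). The groups overlapped, and hnRNPL-deficient library 3 stood highest at 87.5. The 3 ratios to *Cxcr5* share their denominator and are thus not independent. *Ccr7* and *Cxcr4* each rose without overlap and *Cxcr5* fell without overlap. The separation of their ratios and its p therefore follow from the single genes and add no further evidence.

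**Figure D3:**
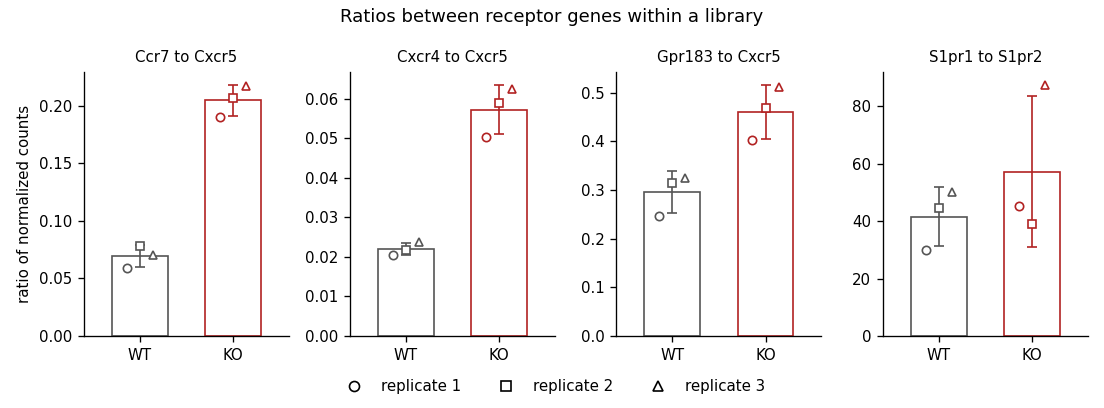
Ratio of the normalized counts of a pair of receptor genes within each library, with bars for the group mean, error bars for the SD over 3 mice and symbols for the replicates. The ratios of Ccr7, Cxcr4 and Gpr183 to Cxcr5 are higher in each hnRNPL-deficient library (KO) than in any WT library, and the ratio of S1pr1 to S1pr2 overlaps between the groups.

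To compare levels between genes, normalized counts were divided by the kilobases of annotated exon of each gene. In WT B cells *Cxcr5* had the highest level per kb (6334 ± 686, SD, n = 3), followed by *Gpr183* (2139 ± 98.9) and *S1pr3* (1968 ± 7.54), and these 3 did not overlap. *S1pr1* (810.2 ± 104) and *Ccr7* (735 ± 54.2) came next and overlapped each other, as did *Cxcr4* (256 ± 14.3) and *Ccr6* (249 ± 5.36). *S1pr4* (192 ± 58.0) stood below them and *S1pr2* (7.72 ± 1.81) was far below all others. In hnRNPL-deficient B cells *Cxcr5* was still first (4135 ± 217) and *Gpr183* second (2192 ± 177). *Ccr7* (1425 ± 47.1), however, was now above *S1pr1* (970.5 ± 120) without overlap and overlapped *S1pr3* (1467 ± 91.1). *Cxcr4* (434 ± 29.2) now stood apart from *Ccr6* (205 ± 24.2), and *Ccr6* overlapped *S1pr4* (159.8 ± 35.3). *S1pr2* stayed last (7.43 ± 3.16).

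Summed per kb, the 9 receptors had 12690 ± 486 in WT and 11000 ± 274 in hnRNPL-deficient B cells (SD, n = 3 each). *Cxcr5* made up 49.8 ± 3.43% of the sum in WT and 37.6 ± 1.39% in hnRNPL-deficient B cells. *Ccr7* made up 5.80 ± 0.54% and 12.96 ± 0.38%, and *Cxcr4* 2.01 ± 0.071% and 3.95 ± 0.29%. The share of *S1pr3* was 15.5 ± 0.59% and 13.3 ± 0.62%, that of *Gpr183* 16.9 ± 1.40% and 19.9 ± 1.68%, and that of *S1pr1* 6.40 ± 0.96% and 8.82 ± 1.01%. Shares of these genes did not overlap between the groups, whereas those of *Ccr6* (1.96 ± 0.032% and 1.87 ± 0.21%), *S1pr4* (1.52 ± 0.50% and 1.46 ± 0.35%) and *S1pr2* (0.061 ± 0.012% and 0.068 ± 0.029%) did. Shares add up to a fixed total, so a lower share of *Cxcr5* raises the others. The normalized counts of *S1pr1* and *Gpr183* themselves overlapped between the groups and gave no call. No such share was computed over all genes, so the separation has no background to be read against.

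**Figure D4:**
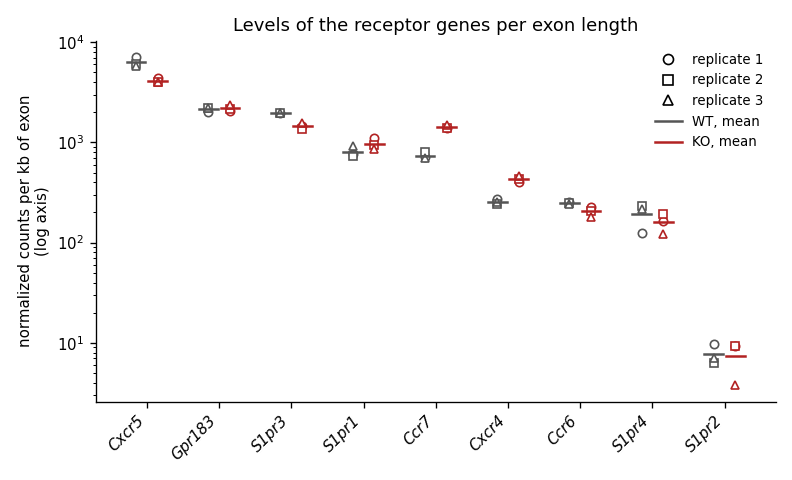
Normalized counts per kb of annotated exon for the 9 receptor genes on a log axis, ordered by the WT mean. Symbols are the libraries and lines the means of WT (grey) and KO, the hnRNPL-deficient group (red), each with 3 mice. Cxcr5 is highest and S1pr2 lowest in both groups, and Ccr7 overlaps S1pr1 in WT but S1pr3 in hnRNPL-deficient B cells.

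The rest of the pathway was read from 8 further lists with 137 genes, of which 135 were in the table and 102 had a mean of at least 10 normalized counts. Of these 102, 8 were called higher and 3 lower, against the 7.28% and 4.08% of all genes given above, and their median log2 fold change was 4.11e-05.

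Of 19 other chemokine receptors, 8 could be tested, and *Ccr4* and *Xcr1* were called higher. Both are named after their values were seen and had means of at most 26.6 normalized counts in a group, and both lost the call when single libraries were left out. *Ccr4*, a receptor for CCL17 and CCL22, had 5.80, 5.19 and 6.88 in WT and 37.0, 33.3 and 9.60 in hnRNPL-deficient libraries, and its adjusted p reached 0.186 without hnRNPL-deficient library 2. *Xcr1*, the XCL1 receptor, had 8.12, 9.51 and 9.18 in WT and 21.6, 24.2 and 27.4 in hnRNPL-deficient libraries. Of 18 other lipid and positioning receptors, 11 could be tested and none passed the adjusted p by limma; their median log2 fold change was -0.09. Of 10 chemokine ligands, 2 could be tested, and *Cxcl10*, a ligand of CXCR3, was lower (1350, 882 and 760.1 in WT and 362, 297 and 414 in hnRNPL-deficient libraries, log2 fold change -1.45, adjusted p = 0.00646 by limma). The ligands of the follicle and T zone receptors are made chiefly by stromal cells, and the RNA here came from cultured splenic B cells sorted for GFP.

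Of 14 genes that make, move or break down the lipid ligands, 10 could be tested. *Plpp3*, a phosphatase of lipid phosphates, was called higher (53.4, 42.4 and 33.6 in WT and 110, 109 and 72.6 in hnRNPL-deficient libraries, log2 fold change 1.15, adjusted p = 0.0386 by limma). It lost the call without WT library 2 or 3 or hnRNPL-deficient library 1 or 2, its adjusted p reaching 0.14 without WT library 3. Its relative *Plpp1*, named after its value was seen, went the other way (log2 fold change -0.50, adjusted p = 0.0519) without reaching 1.5-fold.

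The proteins that relay and stop receptor signals were represented by 27 G proteins, RGS proteins, receptor kinases and arrestins, of which 25 were in the table and 22 could be tested. In this list 3 genes were called higher and none lower, against 7.28% and 4.08% of all genes. The 3 are among 7 tested RGS genes, whose products shorten G protein signalling, and the other 4 were not called, with log2 fold changes of -0.66 to -0.06. The RGS genes are a part of this list and were not a list of their own. *Rgs2* had 34.8, 45.8 and 58.9 normalized counts in WT and 156, 160.5 and 217 in hnRNPL-deficient libraries (log2 fold change 1.93, SE 0.27, adjusted p = 0.00403 by limma). *Rgs18* had 152, 121 and 130.0 in WT and 316, 292 and 271 in hnRNPL-deficient libraries (log2 fold change 1.12, SE 0.18, adjusted p = 0.00698). *Rgs1*, which limits the response of B cells to chemokines, was named after its values were seen, since its counts were low: 4.64, 3.46 and 4.59 in WT and 25.2, 27.3 and 26.0 in hnRNPL-deficient libraries (log2 fold change 2.39, SE 0.36, adjusted p = 0.0055). All 3 kept their call in every alternative in which they were tested. The median of the 22 was 0.08.

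All 28 migration effectors, such as the Rac, Vav, DOCK and PI3K genes, could be tested, and their median log2 fold change was -0.01. *Plcb2*, a phospholipase C that G proteins switch on, was the 1 called (log2 fold change -0.62, adjusted p = 0.0329 by limma), with means of 1268 ± 165 in WT and 825 ± 110 in hnRNPL-deficient B cells (SD, n = 3 each). It lost the call without WT library 2 or 3 or hnRNPL-deficient library 1, its adjusted p reaching 0.125 without WT library 3, and its fold fell short of 1.5 with libraries scaled to equal totals. *Wipf1*, a partner of WASP named after its value was seen, passed the adjusted p without reaching 1.5-fold (log2 fold change -0.33, adjusted p = 0.0563).

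Adhesion and homing molecules were 16 genes, all tested, with 2 called higher and 1 lower. *Itgb3*, the integrin beta chain of the vitronectin receptor, rose from 495 ± 58.2 to 1192 ± 122 (SD, n = 3 each; log2 fold change 1.27, adjusted p = 0.00162 by limma). *Itga4*, the alpha chain of the integrin that binds VCAM-1, rose from 5988 ± 844 to 9679 ± 2109 (log2 fold change 0.68, adjusted p = 0.0349), but lost the call without WT library 2 or 3 or hnRNPL-deficient library 3, its adjusted p reaching 0.12 without WT library 3. *Selplg*, which encodes the selectin ligand PSGL-1, fell from 6453 ± 141 to 3648 ± 751 (log2 fold change -0.84, adjusted p = 0.01002). *Pecam1*, named after its value was seen, passed the adjusted p under 1.5-fold (log2 fold change 0.53, adjusted p = 0.0188).

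Of 5 regulators of these receptors, none was called. *Foxo1*, a transcription factor of naive lymphocyte homing, had 6820.3, 6089 and 6447 normalized counts in WT and 8725, 9146 and 8608 in hnRNPL-deficient libraries, and passed the adjusted p upward without reaching 1.5-fold (log2 fold change 0.45, adjusted p = 0.0163 by limma). *Bach2*, named after its value was seen, passed it downward (log2 fold change -0.35, adjusted p = 0.0622). *Klf2*, an activator of *S1pr1*, had a log2 fold change of 0.19 (95% interval -0.16 to 0.54, adjusted p = 0.461). *Cd69*, whose product holds S1PR1 inside the cell, had a log2 fold change of -0.02 (95% interval -0.38 to 0.34, adjusted p = 0.953), with a sign that turned under other scalings.

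**Figure D5:**
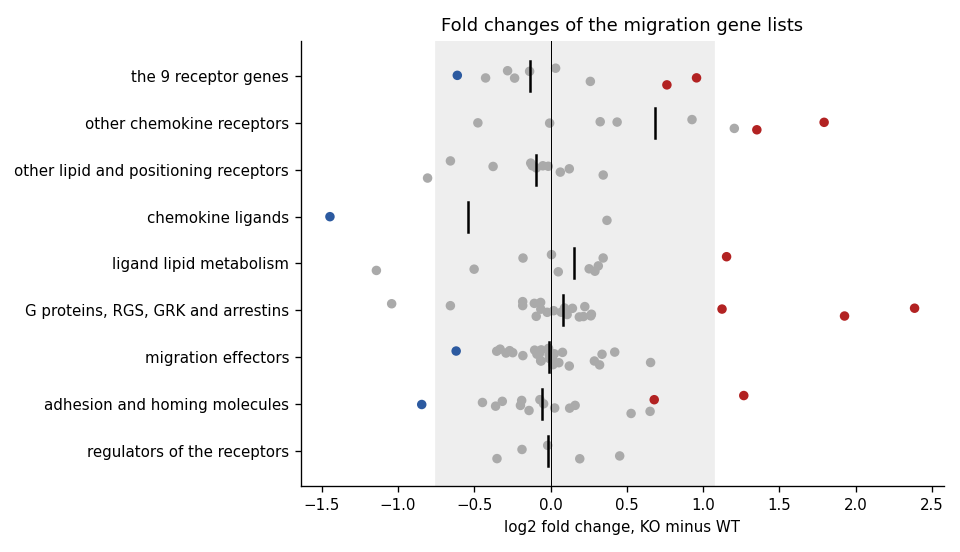
Log2 fold change of each tested gene of the 9 receptors and the 8 further lists, hnRNPL-deficient (KO) minus WT. Red and blue points are called higher or lower, grey points are not called, black bars are list medians, and the shaded band runs from the 5th to the 95th percentile of all 17640 genes tested (-0.75 to 1.07). The 9 receptors all lie within that band, and the points past its upper edge include Rgs1, Rgs2, Rgs18 and Itgb3.

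Markers of B cell subsets and of other cells moved with genotype for some lists, and their part in the receptor results was not tested. Of 4 marginal zone B cell markers, *Cr2* (log2 fold change 0.85, adjusted p = 0.0444 by limma) and *Cd1d1* (1.62, adjusted p = 0.00943) were higher and *Dtx1* lower (-1.94, adjusted p = 7.81e-04), and the summed level was 6218 to 7750 in WT and 6587 to 10280 in hnRNPL-deficient libraries. The call of *Cr2* was lost without WT library 2 or 3 or hnRNPL-deficient library 3, its adjusted p reaching 0.143 without WT library 3. Of the germinal center markers reported here, *Bcl6* (log2 fold change 0.64, adjusted p = 0.0111 by limma), *Fas* (1.01, adjusted p = 0.00529) and *Mybl1* (0.69, adjusted p = 0.0376) were called higher. Over all genes tested 7.28% were. *Mef2b* was not called (log2 fold change 0.12, adjusted p = 0.794 by limma) and *Gcsam* could not be tested, both named after their values were seen. Neither of 2 follicular markers was called (sums 91420 to 105500 and 75250 to 100600). Both are named after their values were seen. *Ighd* passed the adjusted p downward without reaching 1.5-fold (log2 fold change -0.36, adjusted p = 0.0402 by limma), and *Fcer2a* did not pass (-0.09, adjusted p = 0.753). Of 4 plasma cell markers *Jchain* was called lower (sums 14220 to 16490 and 13370 to 16510). Of 8 T cell markers 2 could be tested and none was called, with sums of 158 to 216 in WT and 155 to 390 in hnRNPL-deficient libraries. No NK cell marker reached a mean of 10 and *Ncr1* was at 0. The myeloid sum was 260 to 332 and 1239 to 1382, nearly all of it *Adgre1* (log2 fold change 2.24, adjusted p = 1.39e-04), while *S100a8* and *S100a9* were at 0 and 6 of the 8 genes had a mean under 10. Of 5 dendritic cell markers 2 could be tested and *Xcr1*, given above as a chemokine receptor, was called higher, while *Clec9a*, *Itgax* and *Siglech* were at 0. The dendritic cell sums were 404 to 522 and 417 to 447. The erythroid sum was 13.8 to 37.1 and 54.1 to 82.8, with *Hbb-bt* called higher. The stromal sum was 108 to 127 and 268 to 363, nearly all of it *Cdh5*, which was called higher. *Jchain* and *Hbb-bt*, with means under 50 over all 6 libraries, were named after their values were seen.

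The receptor changes were also read within the libraries of low *Xist* (2 against 2) and of high *Xist* (1 against 1). The log2 difference of *Ccr7* was 0.94 and 0.99 in these strata, that of *Cxcr4* 0.77 and 0.75, that of *Cxcr5* -0.64 and -0.56 and that of *S1pr3* -0.38 and -0.51, each near its pooled value. That of *S1pr1* was 0.38 among libraries of low *Xist* and 0.02 between those of high *Xist*, and that of *S1pr2* was -0.39 and 0.38. *Ccr6* had -0.30 and -0.25, *S1pr4* -0.27 and -0.16, and *Gpr183* 0.06 and -0.03. These within-stratum values were not tested, and each pooled value is a weighted mean of its strata. High *Xist* was as frequent among WT as among hnRNPL-deficient libraries, so a covariate for it could move the fold changes only little. With log2 *Xist* as a covariate over all 6 libraries, the log2 fold changes were 0.96 for *Ccr7* (adjusted p = 0.00302 by limma), 0.76 for *Cxcr4* (adjusted p = 0.018), -0.60 for *Cxcr5* (adjusted p = 0.0151) and -0.42 for *S1pr3* (adjusted p = 0.0332), and the other 5 did not pass.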

How the data were processed

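RNA-seq of GFP+ splenic B cells from 3 WT and 3 hnRNPL-deficient mice was analysed, grouped by the submitters' labels. The replicates of a group are separate mice, per the study's methods. The authors trimmed reads with fastp 0.23.1, aligned them with STAR 2.7.9a to mm10, counted them per gene and strand with featureCounts, and divided the counts by DESeq2 1.38.2 size factors. The deposited values are these normalized counts, a signal per gene and library that is comparable between libraries and need not be whole. The deposited table also holds columns of the authors' own comparison, namely log2 fold changes, a test score and p-values, which were not used.

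Whole reads were recovered in each library (100% of values within 0.01 of a whole number). KO library 2, in which 1 read is worth 1.01, was left out of the count tests because a step so near 1 was not accepted as recovered reads by the rule applied, although its values are multiples of that step. The main test was limma 3.58.1 (R 4.3.3), with its trended variance, on log2 of the normalized count plus a pseudocount of 1. It was fitted to the 17640 genes whose mean was 10 or more, and p-values were adjusted over all of them by Benjamini-Hochberg. A call required an adjusted p under 0.1 and at least 1.5-fold. Fold changes on this scale understate the change of low genes. Counts were also simulated around the WT means and depths of these libraries. Their spread was assumed, with the same dispersion of 0.01 for every gene, so genes that vary more were not represented. On these counts the fit recovered 28 of 66 genes changed 1.5-fold, 61 of 65 changed 2-fold and 65 of 65 changed 4-fold, with 2 false calls. Tests of edgeR 4.0.16 (quasi-likelihood, TMM) and DESeq2 1.42.0 on the reads of 5 libraries were added after seeing the data.

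Ratios and single genes were compared on the log2 scale, with 1 added to each value, by exact permutation. Gene models came from GENCODE on GRCm38, an earlier release than the authors used, and promoters from RefSeq. The members and lists were chosen with earlier results of these data known. Genes named are the 9 receptors, *Hnrnpl*, *Klf2*, *Foxo1*, *Cd69* and, per list, up to 6 called genes of largest change with a mean of at least 50; others are said to be named after their values were seen. Of the listed signalling genes, 2 carry older symbols of genes listed under their current names. *Xist* was read because both sexes were used and the labels give no sex. Alternatives were pseudocount, filter, scaling, variance model, thresholds, replicate block, an *Xist* covariate and leaving out each library. Splicing was not analysed here. The result of 1 listed marker gene is not reported here.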

Additional observations from a re-analysis of the deposited data

How the results depend on the processing

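The higher calls of *Ccr7* and *Cxcr4* and their direction held in 19 of 20 alternatives each, the exception being adjusted p under 0.05 with 2-fold, where 0 receptors were called in either direction. With that threshold 1 other listed gene was lower, and 610 genes were higher and 216 lower in all. Not all of the 20 alternatives could have taken a call away. Dropping the fold minimum could lose none, and some others, such as the replicate block, could change only the adjusted p. The lower call of *Cxcr5* was lost, leaving 0 receptors called lower, with equal totals, quantile normalization, edgeR (log2 fold change -0.55) and DESeq2 (-0.57), always by its fold. With no fold minimum, 2 receptors, 6 other listed genes and 1406 genes in all were lower. A mean of at least 50 left 5 other listed genes higher, since fewer genes were tested. Leaving out each library gave 2 to 2 receptors higher and 0 to 1 lower, the 0 without WT replicate 1. It gave 4 to 8 other listed genes higher, with 4 without WT replicate 2 and without WT replicate 3, and 2 to 4 lower. In all it gave 850 to 1124 genes higher, the fewest without WT replicate 3, and 483 to 695 lower; the cause was not tested. The sign of *Cd69* turned with equal totals (0.036), quantile normalization (0.13), edgeR (0.18) and DESeq2 (0.16), and ranged from -0.20 to 0.12 with a library left out. Those of *S1pr2* (-0.35 to 0.28) and *Gpr183* (-0.029 to 0.085) turned without WT replicate 1 and without KO replicate 3. Dividing by the longest transcript moved the WT levels per kb of *Ccr6* (328), *Cxcr5* (7415), *S1pr2* (9.62) and *Gpr183* (2267). Of 66 genes simulated at exactly the 1.5-fold limit, with the assumed spread, 45 passed the adjusted p in the right direction and 28 also reached that limit.

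The replicate numbers were tried as a block. Deviations from the group means correlated across genes at 0.429, 0.32 and 0.0663 for the same-numbered libraries. Each KO library correlated best with the WT library of its own number, KO library 3 only narrowly (0.0501 with WT library 1). WT library 3, however, correlated best with KO library 2 (0.305), and these are the libraries of high *Xist*. The labels state no pairing, so the main fit used none, and whether the mice were paired cannot be told. With the replicate block, 2 receptors were called higher and 1 lower as before, and 5 other listed genes were lower. Over all genes, 1755 were then called higher and 1018 lower, against 1284 and 719 in the main fit.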
